A study of Mus musculus with 8 samples.

Results

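Hox-cluster miRNAs are the small RNAs whose genes lie among the Hox genes. They comprise miR-10a and miR-10b, miR-196a and miR-196b, and miR-615. The 9 mature miRNAs described here were taken by name from a table of 1396 mature mouse miRNAs. They are named members of these families, and the rule used no test between groups. The opposite arms miR-196b-3p and miR-615-5p, which also lie in the clusters, are not on the list and are given separately. All libraries hold small RNA of the left spinal cord, taken from mice of strain C57BL/6. Names are given without the species prefix except where a member is first described. In the bone cancer pain group (4 libraries), LL/2 cells, a mouse lung carcinoma line, were transplanted into the cavity of the left femur. In the sham group (4 libraries), that cavity was injected with saline. Age, sex, time after surgery and the segment of the cord are not given in the labels used here. Nothing states that each library is a separate animal, so p-values measure only the spread between these libraries, which may be technical. The tissue is bulk, so fewer cells of a type and less miRNA per cell cannot be told apart.

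Hox genes encode transcription factors that set position along the head-to-tail axis, and in the spinal cord genes toward the Hox13 end of a cluster are used at more caudal levels. The miRNA genes share the clusters with them. In animals the miR-10 and miR-196 families repress Hox messages, and in mouse embryos miR-196 directs cleavage of the Hoxb8 message. A miRNA gene makes a hairpin with a 5p and a 3p arm, of which usually 1 accumulates as the guide strand. The seed, bases 2 to 8 of the mature miRNA, largely sets which messages it pairs with.

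Positions are those of GRCm38, from GENCODE M21. Mir10a lies in the Hoxb cluster at chr11:96317165-96317274 on the plus strand, 0.993 kb upstream of Hoxb4 and in no other annotated gene of that strand. Mir10b, at chr2:74726070-74726137 on the plus strand, lies in an intron of both Hoxd4 and Hoxd3. Mir196a-1, at chr11:96265164-96265265 on the plus strand, is intergenic and 6.19 kb upstream of Hoxb9. Mir196a-2, at chr15:102973350-102973434 on the plus strand, lies between Hoxc10 and Hoxc9, in an intron of a long Hoxc5 transcript. Mir196b, at chr6:52230081-52230165 on the minus strand, lies within an annotated exon of Hoxa9. Mir615, at chr15:103014910-103015001 on the plus strand, lies in an intron of Hoxc5. Thus the miR-10 genes sit beside Hoxb4 and Hoxd4, and the miR-196 genes next to the Hox9 genes of 3 clusters.

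**Figure D1:**
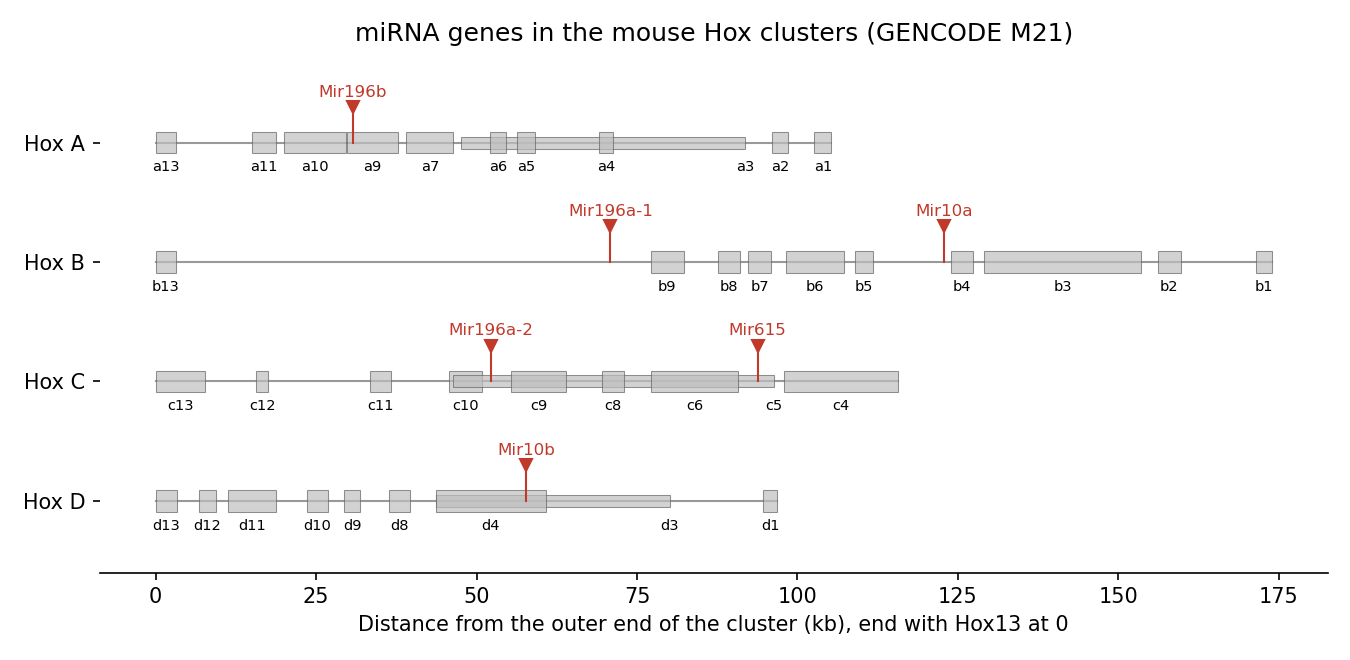
Genes of the 4 mouse Hox clusters along each cluster, in kb from the end that holds Hox13 (x axis), drawn as grey boxes, with the miRNA genes as red markers. Mir196a-1, Mir196a-2 and Mir196b sit next to Hox9 genes, Mir10a next to Hoxb4, and Mir10b inside Hoxd4.

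The mature sequences show what the reads can and cannot separate. All 9 members matched by name in the RefSeq table (GRCm38.p6), and the seed is in capitals. The guide arms are given first, then the opposite arms.
miR-10a-5p: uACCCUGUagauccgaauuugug
miR-10b-5p: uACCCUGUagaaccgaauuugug
miR-196a-5p: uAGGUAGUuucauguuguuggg
miR-196b-5p: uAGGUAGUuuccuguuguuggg
miR-615-3p: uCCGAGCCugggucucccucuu
miR-10a-3p: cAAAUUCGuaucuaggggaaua
miR-10b-3p: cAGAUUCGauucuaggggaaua
miR-196a-1-3p: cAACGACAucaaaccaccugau
miR-196a-2-3p: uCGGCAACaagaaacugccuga

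Counted from the 5′ end, miR-10a-5p and miR-10b-5p differ by U12A alone, and miR-196a-5p and miR-196b-5p by A12C alone. Each pair therefore has 1 shared seed. The mismatch setting of the authors' alignment is not given in the sources used here, so a reading error or a tolerated mismatch could move reads within a pair, and this was not tested. Mir196a-1 and Mir196a-2 make an identical 5p arm, whose reads cannot be assigned to a copy. Their 3p arms differ at 17 of 22 positions without gaps and identify the copy. The hairpins of the miR-196a copies show this, with both mature arms in capitals.
Mir196a-1: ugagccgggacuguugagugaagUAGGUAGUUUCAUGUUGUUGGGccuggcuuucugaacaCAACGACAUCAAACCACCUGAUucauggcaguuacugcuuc
Mir196a-2: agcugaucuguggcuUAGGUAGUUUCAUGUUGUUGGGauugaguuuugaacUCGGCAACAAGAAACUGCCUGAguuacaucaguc

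The best known target site of miR-196 was found in the 3′ UTR of Hoxb8 at chr11:96284888-96284909 (GRCm38, plus strand), where 21 of 22 bases pair with miR-196a-5p and the other is a G:U pair. The next best ungapped match in that message had 14 of 22. With miR-196b-5p the site has 20 of 22. The bases facing the seed are in capitals, and the G:U pair lies among them.
Hoxb8 site: cccaacaacaugaaACUGCCUa

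Between 5220739 and 9260169 reads per library fell on listed miRNAs, and 1 read was worth 0.0741 to 0.130 CPM (counts scaled to the library's total, as deposited). Neuronal miRNAs (miR-124-3p, miR-9-5p and miR-128-3p) summed to between 96442 and 122567 CPM. Most of this was miR-9-5p, at 83597 to 103034 CPM, with miR-128-3p at 11864 to 18262 and miR-124-3p at 748 to 1271 CPM. Of oligodendrocyte miRNAs, miR-219a-2-3p stood at 1371 to 2476 CPM, miR-338-3p at 230 to 456 and miR-219a-5p at 6 to 17.4 CPM. Markers of the labelled tissue were thus present in all 8 libraries. Sensory neuron miRNAs (miR-183-5p, miR-182-5p and miR-96-5p) summed to 2347 to 2846 CPM in bone cancer pain. In sham their sum ran from 1544 CPM (sham 4) to 2775 CPM (sham 3), and their source was not tested. Skeletal muscle miRNAs were uneven. All 6 markers were listed, and miR-208b-3p was at 0 in at least 1 library. Their sum ran from 6065 to 16944 CPM in bone cancer pain and from 5377 to 29286 CPM in sham, highest in sham 1 (29286), sham 2 (24007) and bone cancer pain 4 (16944). Endothelial and smooth muscle miRNAs were uneven too, at 23177 to 35412 CPM in bone cancer pain and 16705 to 29238 CPM in sham. None of these markers was at 0 in any library. Of the endothelial and smooth muscle, erythroid and sensory neuron markers, 3 of 3 each had a log2 fold change above 0. So did 1 of 3 neuronal, 2 of 3 oligodendrocyte and 0 skeletal muscle markers, beside 292 of all 605 miRNAs tested.

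Hox-cluster miRNAs ran from the most abundant miRNA of the tissue to one of a few CPM. miR-10b-5p alone made up 15.6% ± 2.05 of the CPM of all listed miRNAs in bone cancer pain libraries and 16.5% ± 1.22 in sham libraries (SD, n = 4 each). The 9 members together made up 19.8% ± 2.27 of that sum in bone cancer pain and 20.4% ± 1.68 in sham, nearly all of it miR-10. miR-10b-5p was the most abundant miRNA in 7 of 8 libraries and ranked 2 in bone cancer pain 3. Averaged over 8 libraries, it stood at 110363 CPM, miR-10a-5p at 25606, miR-615-3p at 1552, miR-196a-5p at 204, miR-196b-5p at 154, miR-10b-3p at 91.7, miR-10a-3p at 37.3, miR-196a-1-3p at 20.8 and miR-196a-2-3p at 2.62 CPM. Mature miRNAs are of nearly equal length (22 or 23 bases here), so CPM is also a level per length. Levels of different miRNAs are compared here as reads, and unequal capture of different sequences was not tested. The order of the 9 members held within every one of the 8 libraries. The ranges over libraries overlapped for miR-196a-5p and miR-196b-5p and for miR-196b-5p and miR-10b-3p, and for no other neighbours.

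**Figure D2:**
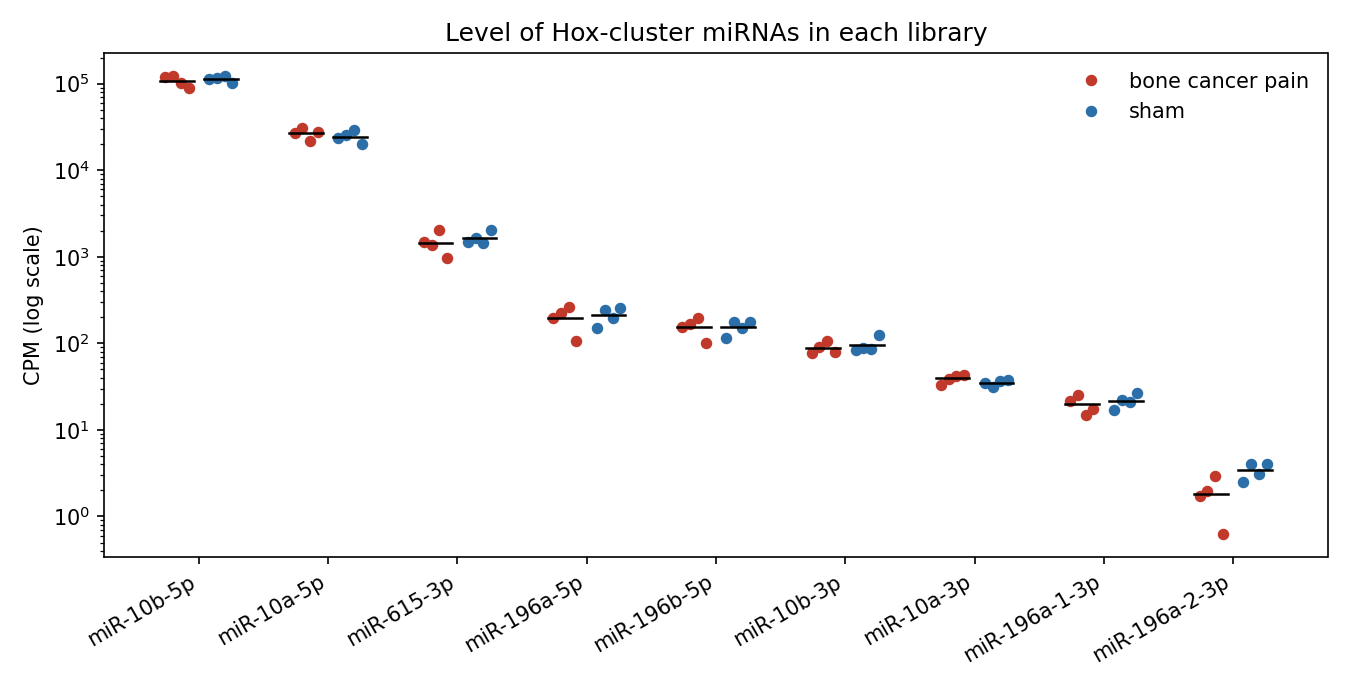
CPM of the 9 Hox-cluster miRNAs (log axis) in each library, bone cancer pain in red and sham in blue, with black bars at the group means (n = 4 each). The miRNAs run from miR-10b-5p, at 89970 to 122639 CPM, to miR-196a-2-3p, at 0.62 to 4.07 CPM, and the groups overlap for each of them.

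No member passed the test between bone cancer pain and sham after adjustment. All 9 averaged 1 CPM or more and so were among the 605 miRNAs compared with limma on log2(CPM + 1). After Benjamini-Hochberg adjustment limma called 0 of 605 at 0.05 (0%), with 0.887 as its lowest value, and edgeR and DESeq2 also called 0. Before adjustment, limma had 28 of 605 under 0.05 (4.63%), edgeR 43 and DESeq2 31. Of the members 1 of 9 was among those 28, and it was lower in bone cancer pain, as were 1.82% of all compared. The groups did not overlap for 0 of 9 members and for 3.64% of the 605 miRNAs, 1.65% being lower in bone cancer pain. The members had a median log2 fold change of -0.11, with 7 of 9 below 0, beside a median of -0.01 and 51.7% below 0 over all tested. For 8 of 9 members, and for 555 of 605 miRNAs, the 95% interval held no change as large as 2-fold.

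**Figure D3:**
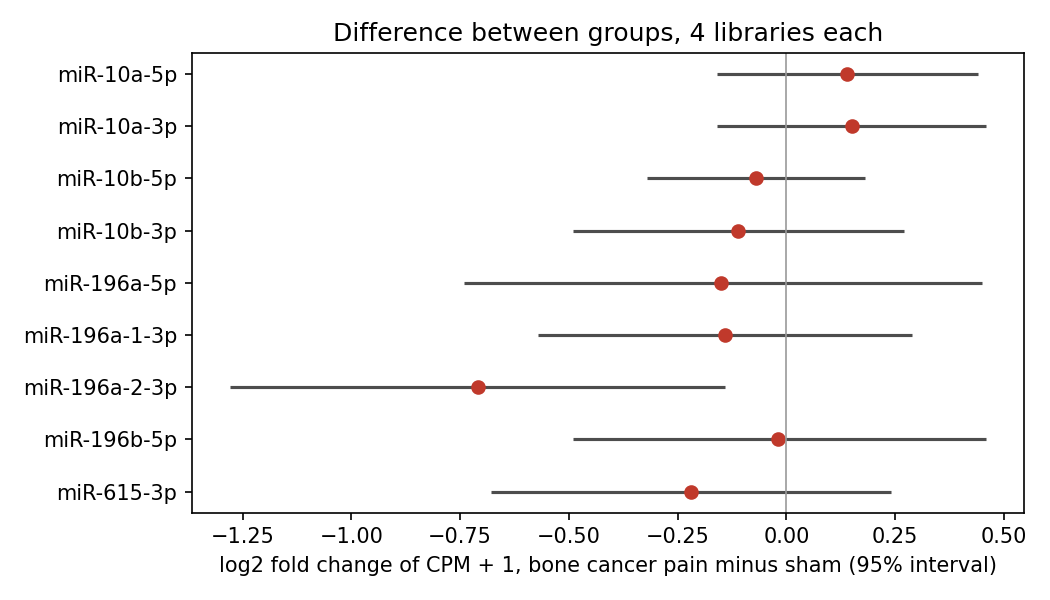
Log2 fold change of CPM + 1 for each Hox-cluster miRNA, bone cancer pain minus sham (points), with 95% intervals from limma (lines). The interval crosses 0 for every member except miR-196a-2-3p, at -0.71 (-1.28 to -0.14), whose adjusted p was 0.887.

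mmu-miR-10b-5p, the guide arm of the Hoxd cluster gene, stood at 118437, 122639, 100931 and 89970 CPM in bone cancer pain 1 to 4, against 113340, 115365, 121637 and 100582 CPM in sham 1 to 4. The lowest library was bone cancer pain 4, followed by sham 4 and bone cancer pain 3, and the groups overlapped. Its log2 fold change was -0.07 (SE 0.11, 95% interval -0.32 to 0.18, limma adjusted p 0.943), or 0.015 without bone cancer pain 4. The interval corresponds to 0.801-fold to 1.13-fold.

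mmu-miR-10a-5p, which shares its seed, had 26944, 30897, 21969 and 27567 CPM in bone cancer pain 1 to 4, against 23586, 25190, 28799 and 19893 CPM in sham 1 to 4. Its lowest library was sham 4 and its highest bone cancer pain 2. The log2 fold change was 0.14 (SE 0.14, 95% interval -0.16 to 0.44, limma adjusted p 0.943), and it was 0.048 without sham 4, 0.07 without bone cancer pain 2, and 0.23 without bone cancer pain 3 or without sham 3. Counting error was small for both miR-10 guides: it gave a coefficient of variation (CV) of 0.194% for miR-10a-5p and 0.0938% for miR-10b-5p, where the 8 libraries varied by 14.3% and 10.7%.

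miR-10b-5p made up most of the miR-10 guide reads in every library. Its lowest share was 76.5% in bone cancer pain 4 (exact 95% interval 76.5% to 76.6%, counting error only) and the highest 83.5% in sham 4 (83.4% to 83.6%). The ratio of miR-10a-5p to miR-10b-5p was 0.228, 0.252, 0.218 and 0.306 in bone cancer pain 1 to 4, against 0.208, 0.218, 0.237 and 0.198 in sham 1 to 4. Bone cancer pain 4 stood above the rest and the other 3 bone cancer pain libraries lay among or just above the sham libraries. The difference in the log2 ratio was 0.21 (two-sided exact permutation p 0.143, adjusted p 0.4 over 7 ratios), or 0.11 without bone cancer pain 4. With 4 against 4 libraries the smallest possible p is 0.0286.

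The opposite arms of miR-10 were rare. mmu-miR-10a-3p had 33.4 to 43.6 CPM in bone cancer pain and 31.3 to 37.6 CPM in sham, with a CV of 11% over the 8 libraries. That CV was at percentile 6.42 of those of 109 tested miRNAs within 2-fold of its mean, whose median was 18.9%. mmu-miR-10b-3p had 76.7, 89.6, 107 and 78.8 CPM in bone cancer pain 1 to 4, against 83.6, 87.3, 85.8 and 126 CPM in sham 1 to 4, so that sham 4 stood above all others. Their log2 fold changes were 0.15 (SE 0.14, limma adjusted p 0.943) and -0.11 (SE 0.17, limma adjusted p 0.943), the second being 0.027 without sham 4. Without sham 1 and sham 2, the libraries with the most muscle miRNA, they were 0.07 for miR-10a-3p and -0.25 for miR-10b-3p.

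The miR-10a gene gave 689 ± 134 reads of its 5p arm per read of its 3p arm in bone cancer pain and 695 ± 126 in sham, and the miR-10b gene 1249 ± 260 and 1223 ± 284. In both groups the miR-10b ratio was thus the higher one. The log2 arm ratios differed between groups by -0.02 for miR-10a and 0.04 for miR-10b (exact permutation p 0.886 for each, adjusted p 0.886). The ratio was lowest in bone cancer pain 3 for miR-10a (525) and in sham 4 for miR-10b (801). Sham 4 also had the most miR-10b-3p (126 CPM). Bone cancer pain 4, the lowest library for miR-10b-5p, had ratios of 631 for miR-10a and 1140 for miR-10b.

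The miR-196 guides varied more than most miRNAs of their level and varied together. mmu-miR-196a-5p stood at 198, 221, 261 and 106 CPM in bone cancer pain 1 to 4, against 151, 243, 197 and 254 CPM in sham 1 to 4. mmu-miR-196b-5p, from the Hoxa cluster, stood at 153, 166, 195 and 102 CPM in bone cancer pain 1 to 4, against 114, 175, 150 and 177 CPM in sham 1 to 4. For both, bone cancer pain 4 was lowest, sham 1 next, and bone cancer pain 3 highest. Their CVs over 8 libraries were 26.2% and 20.8%, beside counting CVs of 2.20% and 2.52% and a median of 15.7% for tested miRNAs within 2-fold of each mean.

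Neither guide passed the test between groups. The log2 fold change was -0.15 for miR-196a-5p (SE 0.27, 95% interval -0.74 to 0.45, limma adjusted p 0.945) and -0.02 for miR-196b-5p (SE 0.21, 95% interval -0.49 to 0.46, limma adjusted p 0.989). Leaving out bone cancer pain 4 gave 0.12 for miR-196a-5p and 0.17 for miR-196b-5p. Leaving out sham 1 gave -0.30 for miR-196a-5p and -0.15 for miR-196b-5p, and leaving out both sham 1 and sham 2 gave -0.26 and -0.12. Summed skeletal muscle miRNAs stood at 16944 and 29286 CPM in bone cancer pain 4 and sham 1, the libraries with the least miR-196, and at 24007 CPM in sham 2, which had 243 CPM of miR-196a-5p. The part of muscle RNA in these levels was not tested.

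Correlation tests among members were not among the planned tests. Over the 8 libraries miR-196a-5p and miR-196b-5p, whose genes lie on different chromosomes, ranked the libraries identically. Pearson's r of log2(CPM + 1) was 0.98 (exact permutation p 2.48e-05, the smallest that 40320 orders allow, adjusted p 0.000893 over 36 pairs of members) and Spearman's rho 1.00 (exact permutation p 4.96e-05, adjusted p 0.00179). It was 0.97 after leaving out the 2 libraries farthest from the median of miR-196a-5p, 1.00 among bone cancer pain libraries and 0.99 among sham libraries. The 1-base difference between them and the shared library total could bear on this value, and their part was not tested. miR-196b-5p was 44.6% ± 2.94 of miR-196 5p reads in bone cancer pain and 42.3% ± 1.00 in sham.

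The ratio of miR-196b-5p to miR-196a-5p was 0.775, 0.751, 0.748 and 0.958 in bone cancer pain 1 to 4, against 0.754, 0.721, 0.763 and 0.699 in sham 1 to 4. Bone cancer pain 4 stood apart, and the others lay between 0.699 and 0.775. Its share of 48.9% (exact 95% interval 46.9% to 51.0%) did not overlap the interval of any other library, the next being 43.6% (41.8% to 45.5%) in bone cancer pain 1. The group difference in the log2 ratio was 0.13 (exact permutation p 0.171, adjusted p 0.4), or 0.046 without bone cancer pain 4.

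The 3p arms separated the miR-196a gene copies. mmu-miR-196a-1-3p, from the Hoxb cluster, had 21.5, 25.4, 14.8 and 17.4 CPM in bone cancer pain 1 to 4, against 17.2, 22.3, 21.1 and 26.4 CPM in sham 1 to 4, a log2 fold change of -0.14 (SE 0.20, limma adjusted p 0.943). Leaving out bone cancer pain 3 gave -0.018, sham 4 gave -0.045, and sham 1 with sham 2 gave -0.27. mmu-miR-196a-2-3p, from the Hoxc cluster, had 1.72, 1.98, 2.91 and 0.62 CPM in bone cancer pain 1 to 4, from 14, 24, 29 and 7 reads. In sham 1 to 4 it had 2.50, 4.07, 3.09 and 4.03 CPM, from 24, 55, 39 and 31 reads. Only bone cancer pain 3 reached into the sham range. This was the member under 0.05 before adjustment: its log2 fold change was -0.71 (SE 0.26, 95% interval -1.28 to -0.14, limma unadjusted p 0.0195, adjusted p 0.887). It was -0.47 without bone cancer pain 4 and -0.76 without sham 1 and sham 2. Summed endothelial and smooth muscle miRNAs stood at 35412, 32387, 23177 and 33312 CPM in bone cancer pain 1 to 4, against 29238, 17358, 18112 and 16705 CPM in sham 1 to 4. In each group the library with the least of them (bone cancer pain 3, sham 4) was at or near the top for miR-196a-2-3p. Bone cancer pain 4, with the least miR-196a-2-3p, held less of them than bone cancer pain 1. Most of the sum was miR-143-3p, at 13034 to 31168 CPM over the libraries. The part of endothelial and smooth muscle miRNAs in the result was not tested. On recovered reads the log2 fold change was -0.92 with edgeR (adjusted p 0.572) and -0.92 with DESeq2 (adjusted p 0.805).

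The copy ratio, miR-196a-1-3p over miR-196a-2-3p, was 11.9, 12.3, 4.96 and 24.4 in bone cancer pain 1 to 4, against 6.64, 5.37, 6.64 and 6.42 in sham 1 to 4. The sham libraries were alike, and the bone cancer pain libraries lay on both sides of them. The difference in the log2 ratio was 0.88 (exact permutation p 0.143, adjusted p 0.4). It was 0.52 without bone cancer pain 4 and 1.29 without bone cancer pain 3, and it was 0.57 with 1 CPM in place of 0.1 CPM added to each value. In shares, miR-196a-1-3p made up 96.6% of the 3p reads in bone cancer pain 4 (exact 95% interval 93.1% to 98.6%) and 83.6% in bone cancer pain 3 (77.3% to 88.7%), which is wider than counting error. These shares count 3p arms that remained, not output of the guide by each gene.

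**Figure D4:**
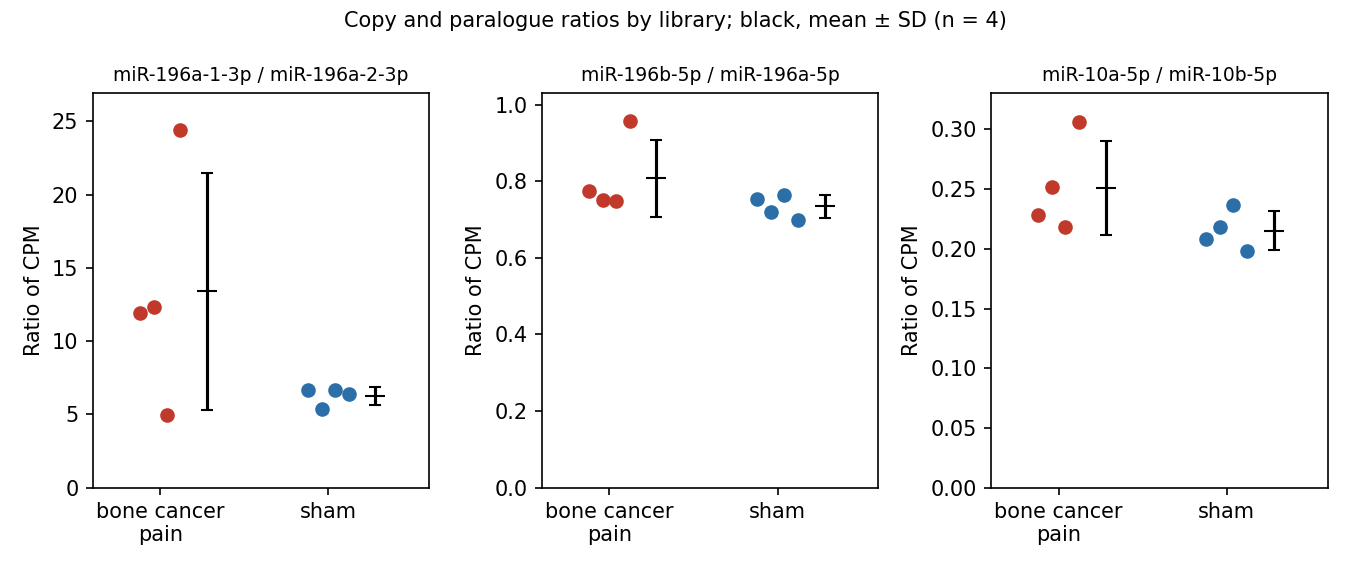
Ratios of CPM within each library for the miR-196a copies (left), the miR-196 paralogues (middle) and the miR-10 paralogues (right), bone cancer pain in red and sham in blue, with means and SD in black (n = 4 each). The highest point in each panel is bone cancer pain 4, at 24.4, 0.958 and 0.306.

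miR-196a-5p exceeded the summed 3p arms of both copies by far less than the miR-10 guides did theirs. The ratio was 8.51, 8.04, 14.7 and 5.86 in bone cancer pain 1 to 4, against 7.65, 9.20, 8.11 and 8.31 in sham 1 to 4. The highest and the lowest were bone cancer pain libraries. Mean log2 ratios differed by 0.08 (exact permutation p 0.800, adjusted p 0.886), or by -0.17 without bone cancer pain 3. The hairpin of Mir196b gave 207 to 399 5p reads per 3p read, with miR-196b-3p at 3 to 7 reads per library, below the filter.

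mmu-miR-615-3p, the 3p guide encoded inside Hoxc5, stood at 1476, 1350, 2020 and 959 CPM in bone cancer pain 1 to 4, against 1480, 1645, 1434 and 2055 CPM in sham 1 to 4. Bone cancer pain 4 was lowest, and bone cancer pain 3 and sham 4 were highest. Its log2 fold change was -0.22 (SE 0.21, 95% interval -0.68 to 0.24, limma adjusted p 0.943), and leaving out bone cancer pain 4 gave -0.041, or -0.11 for sham 4. Without bone cancer pain 3 it was -0.40 (limma adjusted p 0.713), and without sham 1 and sham 2 it was -0.29. Its CV of 23.1% was at percentile 83 of 47 tested miRNAs of like level. The hairpin is the reverse of miR-10 and miR-196 in arm choice: 834 to 2258 reads of the 3p arm were counted per read of miR-615-5p, which had 7 to 17 reads per library. miR-615-5p and miR-196b-3p were the only other listed miRNAs inside the cluster spans.

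The levels of miR-615-3p over the libraries were set beside those of the other guides. With miR-196a-5p, r was 0.87 (exact permutation p 0.00414, adjusted p 0.0746) and rho 0.76 (exact permutation p 0.0368, adjusted p 0.221), so the pair did not pass after adjustment. It was 0.84 without the 2 libraries farthest from the median of miR-196a-5p, 0.92 among bone cancer pain and 0.74 among sham libraries, and 0.67 without bone cancer pain 4. With miR-10a-5p it ran the other way, with r of -0.74 (exact permutation p 0.0343, adjusted p 0.154) and rho of -0.90 (exact permutation p 0.00456, adjusted p 0.0821), and r of -0.68 without the 2 libraries farthest from the median of miR-10a-5p. With miR-196b-5p, r was 0.81 (exact permutation p 0.0122, adjusted p 0.11) and rho 0.76 (exact permutation p 0.0368, adjusted p 0.221). With miR-10b-5p, r was 0.12 (exact permutation p 0.759, adjusted p 0.789) and rho -0.31 (exact permutation p 0.462, adjusted p 0.715), but r was 0.34 among bone cancer pain libraries, -0.93 among sham libraries, and -0.94 without the 2 libraries farthest from the median of miR-10b-5p. In log2 from the mean of 8 libraries, bone cancer pain 4 was low for both miR-10b-5p (-0.29) and miR-615-3p (-0.66). Bone cancer pain 3 (-0.12 and 0.41) and sham 4 (-0.13 and 0.44) were low for miR-10b-5p only. The value for that pair without bone cancer pain 4 alone was not computed. Of the 36 pairs, 1 passed by either coefficient, that of miR-196a-5p and miR-196b-5p.

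**Figure D5:**
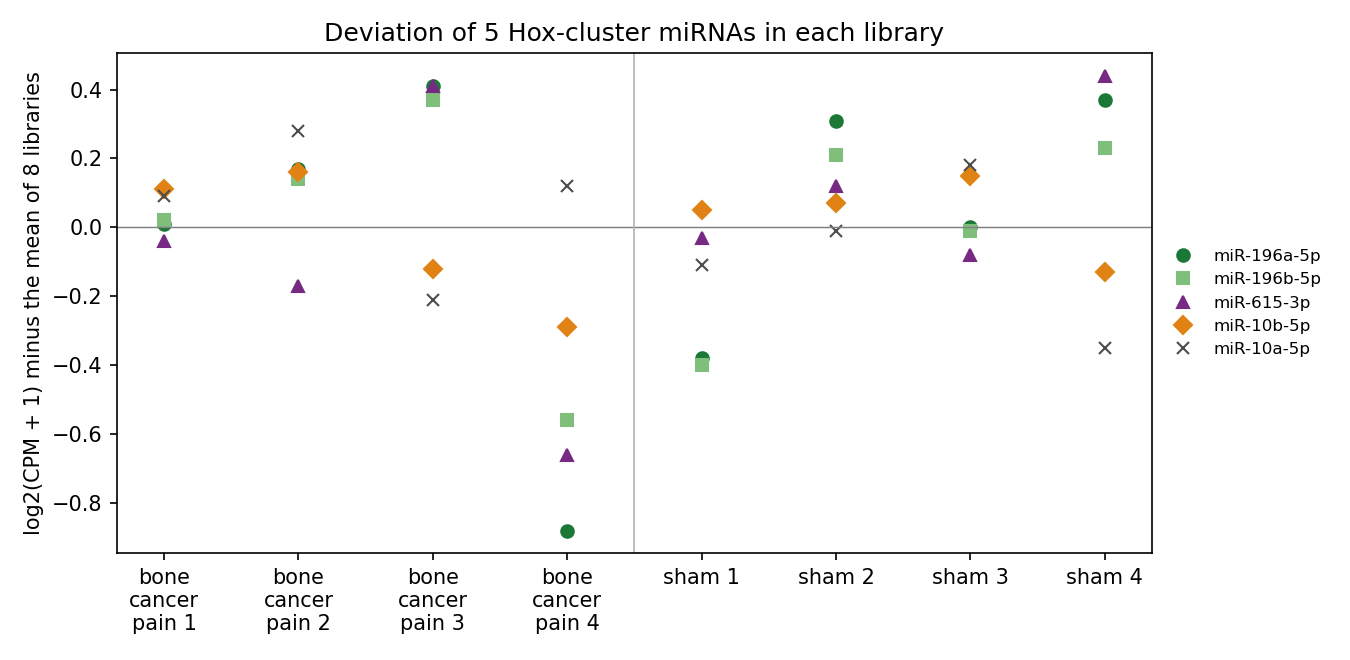
Deviation of log2(CPM + 1) from the mean of 8 libraries (y axis) for the guides miR-196a-5p, miR-196b-5p, miR-615-3p, miR-10b-5p and miR-10a-5p in each library (x axis). In bone cancer pain 4 miR-196a-5p is at -0.88 and miR-615-3p at -0.66, in bone cancer pain 3 both are at 0.41, and miR-10a-5p does not follow them.

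The balance of the miR-196 and miR-10 guides was set out as miR-196a-5p reads per 1000 reads of miR-10b-5p. It was 1.67, 1.80, 2.59 and 1.18 in bone cancer pain 1 to 4, against 1.33, 2.11, 1.62 and 2.52 in sham 1 to 4. Each group held low and high libraries, and the log2 ratio differed by -0.08 (exact permutation p 0.83, adjusted p 0.886). This ratio changed sign without bone cancer pain 4 (0.11) or sham 4 (0.07).

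Among the 596 tested miRNAs outside the list, those most like miR-196a-5p over the 8 libraries were miR-488-3p (r 0.91), miR-300-3p (0.86) and miR-186-5p (0.83). Those most like miR-10b-5p were miR-101a-3p (0.84), miR-551b-3p (0.76) and miR-101b-3p (0.75). Those most like miR-10a-5p were miR-20b-5p (0.92), miR-451a (0.86) and miR-363-3p (0.86). These r are the highest of many values and are given as a description. Levels were low for miR-20b-5p (mean 4.17 CPM, lowest 0.78), miR-363-3p (6.29, lowest 1.3) and miR-551b-3p (2.27, lowest 1.59). miR-451a is a miRNA of red blood cells, and the summed erythroid miRNAs ran from 1435 to 2360 CPM in bone cancer pain and from 667 (sham 4) to 3386 CPM (sham 3) in sham. miR-10a-5p was lowest in sham 4. The part of blood in its level was not tested.

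The relatives of miR-10, miR-99a, miR-99b and miR-100, are close to it over most of the mature sequence but have another seed, as miR-100-5p shows.
miR-100-5p: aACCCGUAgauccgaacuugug
Both arms of these 3 families were compared. In limma, 0 of 6 passed after adjustment and 0 of 6 were under 0.05 before it. Their median log2 fold change was 0.07 (range -0.03 to 0.18), with 5 of 6 above 0. The mean of miR-100-5p was 23952 ± 2931 CPM in bone cancer pain libraries, against 23713 ± 4188 CPM in sham libraries (SD, n = 4 each), a level close to that of miR-10a-5p.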

How the data were processed

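The authors deposited 1 table of CPM (reads scaled to each library's total, with 2 decimals). Per the submitters' processing notes, mm10 was the build, and Bowtie, STAR, Salmon and fastp were used, with no versions or steps given. The kits in the labels' protocols are for fragmented, rRNA-depleted RNA, while the descriptions say small RNA. For mismatches and for reads that match several miRNAs, the handling is not given in the sources used here. Columns that could not be mapped numbered 0.

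Deposited CPM were tested as log2(CPM + 1), without rescaling, in the 605 miRNAs averaging 1 CPM or more (791 were left out), with limma 3.58.1 in R 4.3.3 (mean-variance trend, two-sided, Benjamini-Hochberg). This scale understates changes near 1 CPM. The 7 tested ratios used CPM + 0.1 and a two-sided exact permutation test over 70 arrangements, and were adjusted together. The ratios of the miR-615 and miR-196b arms, and the printed values of miR-196a-5p per 1000 reads of miR-10b-5p, have nothing added and carry no test of their own. Reads were recovered from the CPM steps. Within 0.0051 CPM, at least 99.8% of values above 0 were whole reads. The step of bone cancer pain 3 is close to 0.1 CPM, yet only 16.6% of its values of 1 CPM or more are multiples of 0.1. These reads gave counting errors and intervals, which cover counting error only since PCR copies are not independent, and edgeR 4.0.16 and DESeq2 1.42.0 fits as alternatives. No library was a copy of another in its group. Chi-square over its degrees of freedom was 31.8 for bone cancer pain 1 and 2 and 190 or more for every other pair of a group. Pairs across groups were not compared. Of these procedures only the limma fit was run on simulated reads with known changes. The ratio tests, the read recovery, edgeR and DESeq2 were not.

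The members and lists were chosen with earlier results of these data known. Named miRNAs are the members, other miRNAs in the cluster spans, the miR-99/100 family, marker miRNAs, and the 3 miRNAs most correlated with each of miR-10b-5p, miR-10a-5p and miR-196a-5p.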

Additional observations from a re-analysis of the deposited data

Results flagged for a closer look

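In 36 groups of 4 values, 4 held a library far from the other 3 by Dixon's criterion, which chance gives in about 1 of 20 groups. miR-10b-3p stood at 126 CPM in sham 4, above the other sham libraries. The ratio of miR-10b-5p to miR-10b-3p was 801 in sham 4, below the other sham libraries, and rests on the same reads. The ratio of miR-196b-5p to miR-196a-5p was 0.958 in bone cancer pain 4, above the other bone cancer pain libraries. miR-615-5p stood at 1.26 CPM in sham 2, a value of 17 reads.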

How the results depend on the processing

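The count of miRNAs past the adjusted threshold was 0 in all 19 alternative fits, including edgeR and DESeq2 on recovered reads and the fit with a replicate block (0, with 21 under 0.05 before adjustment). Same-numbered libraries did not deviate together (correlations from -0.31 to -0.01, and 0 of 8 libraries matched best with their own number). Some pairs of unlike number did, over the tested miRNAs. Their correlations ran from -0.35 (bone cancer pain 3 with sham 2) to 0.49 (bone cancer pain 3 with sham 4). It was 0.44 for bone cancer pain 2 with sham 3. What such pairs share, and its part in the members' levels, was not tested. Of 170 member fold changes under other settings, 161 kept their direction, and of 70 ratio differences, 59 did. When 1 library at a time was left out, the log2 fold change ranged from -0.13 to 0.015 for miR-10b-5p, from -0.21 to 0.027 for miR-10b-3p, from -0.31 to 0.12 for miR-196a-5p and from -0.15 to 0.17 for miR-196b-5p. That of miR-196b-5p was also 0.041 under quantile normalization, 0.013 with edgeR and 0.017 with DESeq2. The difference in the log2 arm ratio ranged from -0.14 to 0.11 for miR-10a, from -0.15 to 0.17 for miR-10b and from -0.17 to 0.27 for miR-196a, and that of miR-196a-5p to miR-10b-5p from -0.27 to 0.11. Without sham 1 and sham 2 the miR-10a arm ratio differed by 0.08. The cause of these changes was not tested. Ranges without 1 library were 0.048 to 0.23 for miR-10a-5p, 0.10 to 0.23 for miR-10a-3p, -0.26 to -0.018 for miR-196a-1-3p and -0.40 to -0.041 for miR-615-3p. miR-196a-2-3p ranged from -0.89 to -0.47 without 1 library, was -1.03 with a pseudocount of 0.1 CPM, and could not be fitted with a filter of 10 CPM, which left it out. Alternatives for correlations were chosen after seeing the data. In these, r of miR-196a-5p with miR-196b-5p was 0.98 to 0.99 without 1 library. It was 0.99 without sham 1 and sham 2 (exact permutation p 0.00139, the smallest that 6 libraries allow, adjusted p 0.05). For miR-196a-5p with miR-615-3p, r was 0.67 to 0.93 without 1 library. Its adjusted exact permutation p ran from 0.0464 without bone cancer pain 2, the only value under 0.05, to 0.437 without bone cancer pain 4. Counts of 7 to 55 reads limit miR-196a-2-3p.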
